A study of Drosophila melanogaster with 2 samples.

Results

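Oc binding was examined at 8 genes of the Drosophila tracheal system, namely trh, tgo, btl, bnl, vvl, rib, verm and serp. A peak summit belonged to one of these genes when the nearest start site of a protein-coding transcript (Ensembl annotation of dm6) was that of the gene. By this rule the 8 genes held 24 of the 5844 summits in the depositors' list of reproducible peaks, called the IDR list after its test of irreproducible discovery rate. They held 100 of the 30000 summits in the list called on the pooled reads of both replicates. The 24 IDR summits lay at 7 of the 8 genes, and btl had none. The measurement was ChIP-seq of whole Drosophila melanogaster embryos, 2 to 14 hours old, from a transgenic line that stably carries Oc (the homeodomain factor encoded by ocelliless) with GFP at its C terminus. Chromatin was sheared by sonication and precipitated with an anti-GFP antibody. The 2 libraries, biological replicates 2 and 3, formed 1 group with the same genotype, age and antibody, and embryos of unrecorded sex. Which promoter drives the fusion, and whether the line keeps the endogenous gene, is not stated in the labels. In whole embryos, binding in few cells and weak binding in many cells cannot be told apart, and the libraries do not show whether the binding took place in tracheal cells.

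The trachea is the branched tube system that carries air to the tissues of the fly. The basic helix-loop-helix PAS protein Trachealess (trh) pairs with its general partner Tango (tgo) to select the tracheal primordia, and the POU factor Ventral veins lacking (vvl) acts beside them. Branches then grow towards cells that secrete the FGF ligand Branchless (bnl), which is received by the FGF receptor Breathless (btl) on tracheal cells. The BTB-domain factor Ribbon (rib) is needed for branch outgrowth, and the secreted chitin deacetylases Vermiform (verm) and Serpentine (serp) modify the luminal chitin that limits tube length.

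Sequence around the summits is shown first for the 3 IDR windows that hold a full Oc site, then for a promoter each of trh and bnl, and last for the strongest window of vvl, which holds none of the sites sought. Each window has 101 bases centred on the summit, read 5′ to 3′ on the plus strand of dm6 from the RefSeq assembly. Capitals mark matches on either strand to 5 motifs. TAATCC is the core site of Oc and of other homeodomains with lysine at position 50. TAAGCC is a variant of that site, and the shorter TAATC is nested in the full one. The core recognised by Trh with Tgo is ACGTG, and that of GAGA factor is GAGAGAG. A match is a description of the letters and does not show a bound site.
tgo, summit upstream in the neur intron, chr3R:9025266-9025366: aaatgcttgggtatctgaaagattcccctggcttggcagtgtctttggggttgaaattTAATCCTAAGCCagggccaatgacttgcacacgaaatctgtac
trh, weaker intronic summit, chr3L:375059-375159: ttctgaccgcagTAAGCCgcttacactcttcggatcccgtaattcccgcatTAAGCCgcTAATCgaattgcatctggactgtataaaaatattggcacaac
serp, intronic summit, chr3L:19705343-19705443: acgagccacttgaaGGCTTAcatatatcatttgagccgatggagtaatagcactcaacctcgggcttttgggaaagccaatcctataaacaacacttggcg
trh, promoter summit, chr3L:377621-377721: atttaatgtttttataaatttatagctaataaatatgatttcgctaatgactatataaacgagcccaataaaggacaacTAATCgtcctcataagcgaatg
bnl, promoter summit, chr3R:19836896-19836996: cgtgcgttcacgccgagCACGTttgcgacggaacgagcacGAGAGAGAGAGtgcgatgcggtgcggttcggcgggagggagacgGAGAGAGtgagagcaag
vvl, strongest summit, chr3L:6824005-6824105: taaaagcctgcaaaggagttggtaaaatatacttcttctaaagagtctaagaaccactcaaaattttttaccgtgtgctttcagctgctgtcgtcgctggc

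The only TAATCC match in the 24 IDR windows was in the tgo window, centred 10 bp from the summit on the plus strand at 3R 9025324 to 9025329. A TAAGCC match followed it directly at 3R 9025330 to 9025335. Both sites together occurred in 49 of all 5844 IDR windows (0.838%). TAATCC directly followed by TAAGCC occurred in 1 of the 5844 windows (0.0171%), the tgo window itself, in a count made after that window was seen. The weaker trh window held TAAGCC at 2 places, 3L 375071 to 375076 and 3L 375110 to 375115, and the second was centred 4 bp from the summit. At least 2 TAAGCC matches occurred in 40 of all IDR windows (0.684%). In serp the TAAGCC match was on the minus strand at 3L 19705357 to 19705362, centred 34 bp to the left of the summit.

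Counted over windows, TAATCC was found in 1 of 24 (4.17%, 95% Wilson interval 0.739 to 20.2), against 8.3% of all IDR windows and 3.41% of windows centred 500 bp to either side of all IDR summits. TAAGCC was found in 3 of 24 (12.5%, 4.34 to 31.0), against 8.69% of all IDR windows and 3.95% of the windows to either side. At least one of the sites was in 3 of 24 windows, and in 16.2% of all. The interval of each of the 2 sites includes its share of all IDR windows, so at 24 windows no difference from that share was detectable. The TAAGCC share to either side, 3.95%, lies just below the TAAGCC interval, a difference that was not tested. TAATC, a motif added after seeing the windows, was in 8 of 24 (33.3%, 18.0 to 53.3), against 26.0% of all and 16.5% to either side. Of these 8 windows, 3 were at rib, 2 at trh and 1 each at tgo, verm and vvl.

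Sites of other factors were each in 0 or 1 of the 24 IDR windows. ACGTG, which Trh and Tgo recognise, was in 1 window, that of the bnl promoter (7.05% of all IDR windows). The same window held GAGAGAG at 4 overlapping or separate places (2.89% of all). The octamer ATGCAAAT of POU factors such as Vvl (2.33% of all), the homeodomain site TAATTA (7.68% of all) and the Zelda site CAGGTAG (0.376% of all) were in 0 of 24 windows, a count for which the Wilson interval reaches 13.8%. Below the IDR set ATGCAAAT was in 6 of 76 windows (7.89%), against 2.06% of all windows there. These 6 were spread over 5 genes, with 2 at vvl and 1 each at trh, bnl, verm and serp, and the highest signal among them was 101, at bnl. ACGTG went the other way below the IDR set, in 2 of 76 windows (2.63%), against 8.38% of all. TAATTA (5.26%, against 6.14%) and GAGAGAG (2.63%, against 2.55%) were near their shares of all. With a single group of samples these differences in share were not tested.

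The libraries gave lists of fixed length, with 30000 peaks for each replicate and for the pooled reads. The peak signal is the authors' value, on a scale that was not stated, and is used here to rank peaks within a list, with rank 1 the highest. Signals of the replicate lists are lower than those of the pooled list as a whole (medians of 40.5, 36.3 and 70.7). Where signals of different lists are printed together, the lists are therefore compared by rank. The number of reads behind each list is unknown here. Intervals cover counting error alone, and with 2 libraries in 1 group no test between conditions exists.

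Across all protein-coding genes, 2904 of 13764 (21.1%) had at least 1 IDR summit, and 7 of the 8 tracheal genes did. The genes were chosen with this result known, so the count is a description. Summits were denser here than over the genome, at 1.21 IDR summits per 10 kb of the sequence nearest to the start sites, against 0.425 over all genes, a difference that was not tested. Leaving out vvl, which has the longest such sequence (75.4 kb), the density was 1.31 per 10 kb from 16 summits. Among the genes it ranged from 4.98 at verm and 3.37 at rib to 1.09 at tgo, 1.06 at vvl, 0.855 at serp, 0.698 at bnl, 0.483 at trh and 0 at btl. Of the 100 pooled summits 24 were in the IDR set (24.0%), against 19.5% of all pooled summits.

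The signal of the 24 IDR peaks had a median of 222, close to the 217 of all IDR peaks, and ran from 147 to 541. The whole IDR set reached 2816. Of the 24 peaks 14 were among the 2922 IDR peaks with the highest signal and 1, at rib, was among the first 584. A -log10 q-value of 3.92, the ceiling of the IDR list, was carried by 17 of the 24 (70.8%, against 72.0% of all). The weakest IDR peak, in an intron of trh (signal 147, rank 5794), lay just inside the limit of the list, and the strongest one outside it was at the promoter of verm (signal 143, rank 6051).

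**Figure D1:**
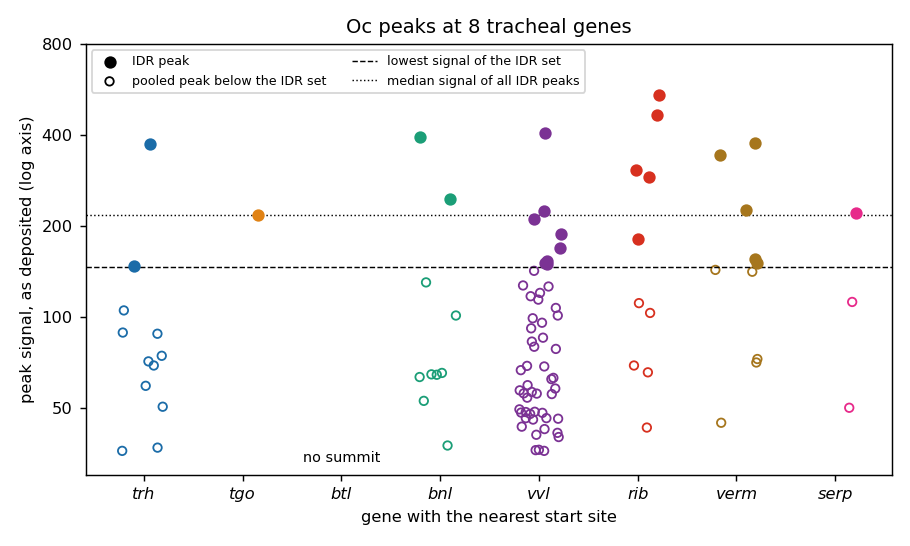
Deposited peak signal (log axis) of each pooled peak by gene, with filled points for the 24 IDR peaks, open points for the 76 below the IDR set, a dashed line at the lowest IDR signal (146) and a dotted line at the median of all IDR peaks (217). The 2 highest points belong to rib, vvl has the most peaks, and btl has no point.

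Both replicates placed these summits at like ranks. A summit of each replicate lay within 100 bp of 23 of the 24 IDR summits (95.8%), against 93.6% of all IDR summits, and this agreement is partly built in because the IDR list was derived from the replicates. The median rank was 2660 in replicate 2 and 2824 in replicate 3. The strongest summits of trh, bnl, verm and vvl each ranked between 841 and 1042 in both lists. Over the 23 summits the signals of the replicates had a Spearman rho of 0.778, against 0.675 over the 5472 IDR summits found in both. The points share the control alignment and the call by pooled signal, and neighbouring summits share reads. Ranks differed by more than a factor of 2 at 4 of the 23 summits (17.4%, against 23.1% of all), of which 2 were at rib and 2 at vvl. They include the strongest rib summit, whose match in replicate 3 lay 86 bp away.

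**Figure D2:**
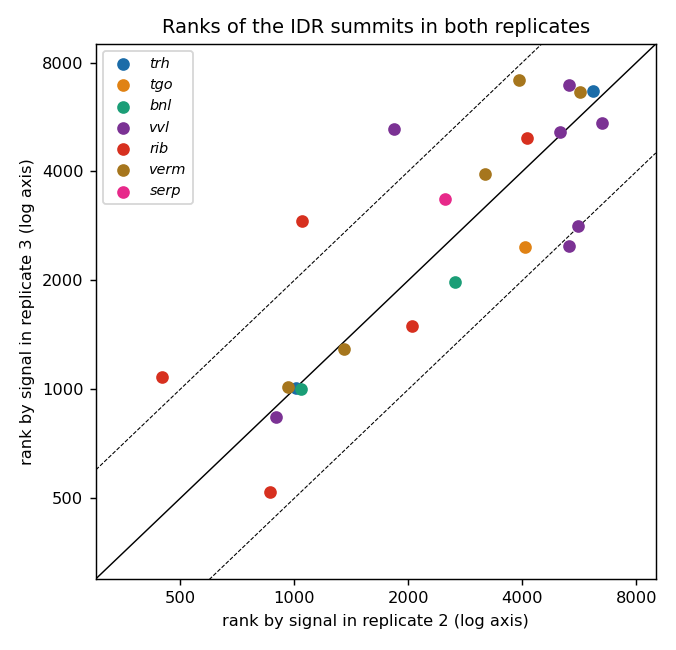
Rank by signal of 23 IDR summits in replicate 2 (horizontal) and replicate 3 (vertical), both on log axes, coloured by gene; the solid line marks equal ranks and the dashed lines a 2-fold difference. The summits lie along the diagonal, with 4 points outside the dashed lines.

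The selector trh (FBgn0262139, 3L 366524 to 392633, minus strand) had 2 IDR summits and 12 pooled summits. The stronger one, at 3L 377671, lay 355 bp upstream of the inner of its 2 start sites and within the gene as transcribed from the outer one. Its signal was 374 in the pooled list, 204 in replicate 2 (rank 1014) and 175 in replicate 3 (rank 1010), so both libraries placed it at almost the same rank. The window is AT-rich, with 27.7% G or C. The weaker one, at 3L 375109 in an intron 2207 bp downstream of that start, had a signal of 147 in the pooled list, 77.0 in replicate 2 (rank 6148) and 67.2 in replicate 3 (rank 6663). Taken singly, neither replicate would have kept it among as many peaks as the IDR list holds. Below the IDR set the strongest trh peaks had signals of 105 (3L 381238), 88.7 (3L 411237) and 87.9 (3L 400510), the last 2 in intergenic sequence beyond the outer start, at 18604 bp and 7877 bp from it.

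The summit assigned to tgo (FBgn0264075, 3R 9016773 to 9020022, minus strand), which encodes the partner of Trh, was a single one in both the IDR and the pooled list. It lay at 3R 9025316, 5294 bp upstream of the start site and inside an intron of the neighbouring gene neur, which encodes the Notch pathway ubiquitin ligase Neuralized. The assignment by nearest start site therefore does not place it in tgo itself. Its signal was 217, with 98.5 in replicate 2 (rank 4074) and 116 in replicate 3 (rank 2481), and its rank was higher in replicate 3. The start site of the antisense RNA asRNA:CR31429 was nearer, and with start sites of all annotated genes tgo had 0 IDR summits.

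vvl (FBgn0086680, 3L 6790158 to 6794941, plus strand) had the most summits of the 8 genes, with 8 in the IDR list and 54 in the pooled list. At least 8 IDR summits were found at 75 of the 13764 genes (0.545%). The sequence nearest to its start is also the longest of the 8 genes. At its promoter a summit 63 bp upstream of the start (3L 6790095) had a signal of 210, with 84.1 in replicate 2 (rank 5324) and 116 in replicate 3 (rank 2483). The window there holds 63.4% G or C. None of the 8 summits lay within the transcribed gene.

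Downstream of vvl, 6 IDR summits were spread over 16825 bp of intergenic sequence, from 17072 to 33897 bp beyond the start. The farthest was also the strongest, at 3L 6824055, with a signal of 405 in the pooled list, 214 in replicate 2 (rank 898) and 191 in replicate 3 (rank 841). The nearest of the 6, at 3L 6807230 (signal 224), differed most between the libraries, at 152 in replicate 2 (rank 1840) and 78.1 in replicate 3 (rank 5225). The other 4 had signals of 188 (3L 6816406), 153 (3L 6817206), 151 (3L 6812912) and 150 (3L 6812644). The last 2 lie 268 bp apart, so they are not independent. The summit at 3L 6812912 had no counterpart within 100 bp in either replicate list, where the nearest summits were 193 bp (replicate 2) and 268 bp away (replicate 3). Upstream of the gene, a summit at 3L 6779578, 10580 bp from the start, had a signal of 169. The start site of a noncoding RNA gene was nearer to it, and with start sites of all annotated genes vvl had 7 IDR summits.

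Below the IDR set vvl had 46 pooled summits, of which 20 had a counterpart in both replicates, 18 in replicate 2 alone and 8 in replicate 3 alone. The strongest had signals of 142 (3L 6824254), 127 (3L 6800872) and 126 (3L 6813126). TAATCC was in 4 of these 46 windows, at 3L 6811217, 3L 6826498, 3L 6827982 and 3L 6845188, with signals of 114, 66.6, 98.9 and 78.3. At the other genes, with at most 10 windows each below the IDR set, 0 held the site. Over the 76 windows of the 8 genes below the IDR set the share of TAATCC was 5.26%. Over all pooled windows below the IDR set its share was 5.33%.

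**Figure D3:**
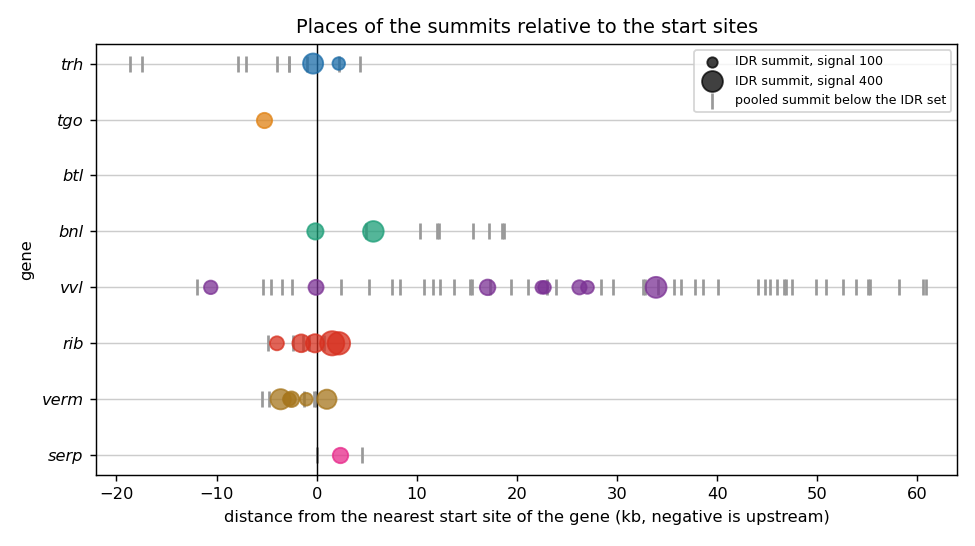
Distance of each summit from the nearest start site of its gene in kb, with negative values upstream, 1 row for each gene; circles are IDR summits with area in proportion to signal, and grey ticks are pooled summits below the IDR set. The IDR summits of vvl reach 33.9 kb downstream, those of rib and verm lie within 5 kb of a start, and the btl row is empty.

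rib (FBgn0003254, 2R 19270078 to 19281396, plus strand) held the highest signals of the 8 genes. Its 5 IDR summits spanned 9455 bp, and at least 5 IDR summits were found at 236 of the 13764 genes (1.71%). The strongest, in the first part of the gene at 2R 19271625 and 1547 bp downstream of the outer start, had a signal of 541, with 296 in replicate 2 (rank 449) and 170 in replicate 3 (rank 1081). The next, at 2R 19272298 (signal 465), was the other way round, with 218 in replicate 2 (rank 863) and 239 in replicate 3 (rank 520). By these matches the libraries did not order the neighbouring peaks alike. The replicate 3 summit matched to the strongest lay 86 bp from it, against 7 bp in replicate 2. The reversed order rests on that distant match.

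The other 3 IDR summits of rib were at the inner promoter, in the intron before it and upstream of the gene. The one at the inner promoter (2R 19275564, 168 bp upstream of that start) had a signal of 306, with 201 in replicate 2 (rank 1046) and 106 in replicate 3 (rank 2913). The intronic one at 2R 19274194 had a signal of 291 and the one at 2R 19266109, 3969 bp upstream of the outer start, a signal of 181. Below the IDR set the 3 strongest of 5 had signals of 111 (2R 19276437), 103 (2R 19274411) and 69.0 (2R 19265185).

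The FGF ligand gene had IDR summits and the gene of its receptor had none, in 28.7 kb and 6.51 kb of nearest sequence. This difference was not tested. bnl (FBgn0014135, 3R 19794073 to 19836817, minus strand) had 2 IDR summits and 10 pooled ones. The stronger was in an intron at 3R 19831155, 5662 bp downstream of the start, with a signal of 394, 201 in replicate 2 (rank 1042) and 176 in replicate 3 (rank 1003). Its window had the lowest share of G or C of the 24, at 24.8%. The other was at the promoter, 129 bp upstream of the start (3R 19836946), with a signal of 245, 125 in replicate 2 (rank 2660) and 130 in replicate 3 (rank 1977), and its window held 64.4% G or C.

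The transcribed region of bnl held more binding than the assignment by start site counts. Of the 20 pooled summits within it, 11 were assigned to Acsx4, whose start lies nearer to the far end of bnl. Among them were 2 IDR summits, at 3R 19803634 (signal 234) and 3R 19805110 (signal 279), which are 33183 and 31707 bp from the bnl start and 20112 and 21588 bp from that of Acsx4. They are left out of the counts for bnl. Below the IDR set the strongest summits assigned to bnl had signals of 130 (3R 19824638), 101 (3R 19818072) and 65.2 (3R 19819569), each in an intron.

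btl (FBgn0285896, 3L 14075772 to 14083229, plus strand) had 0 summits in the IDR list, the pooled list and both replicate lists, although the replicate lists reach far down in signal. Of all protein-coding genes 42.3% had at least 1 pooled summit, so most genes had none, and the sequence nearest to the btl start sites is short (6.51 kb). The nearest IDR summit, at 3L 14090012 (signal 189), was 12947 bp from a btl start and was assigned to CG8100.

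The chitin deacetylase genes verm and serp are neighbours on the same strand, and together they held 6 IDR summits over 11153 bp. verm (FBgn0261341, 3L 19690033 to 19695260, minus strand) had 5 of them. The strongest, in the intergenic sequence between the genes at 3L 19698857, lay 3597 bp upstream of the verm start and had a signal of 377, with 208 in replicate 2 (rank 961) and 175 in replicate 3 (rank 1014). The next was within verm, in an intron at 3L 19694240, with a signal of 343, 177 in replicate 2 (rank 1356) and 157 in replicate 3 (rank 1292). Neither window held a match to the sites sought. The remaining 3, at 3L 19697777 (signal 225), 3L 19697980 (signal 155) and 3L 19696298 (signal 151), were upstream of verm, and the first 2 of these are 203 bp apart with overlapping intervals. The promoter summit of verm, 30 bp from the start (3L 19695290), stayed below the IDR set at a signal of 143, as did those at 3L 19700764 (signal 141) and 3L 19695496 (signal 72.5).

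serp (FBgn0260653, 3L 19700977 to 19708015, minus strand) had 1 IDR summit, in an intron at 3L 19705393, 2307 bp downstream of a start site. Its signal was 220, with 129 in replicate 2 (rank 2501) and 99.1 in replicate 3 (rank 3356). At its promoter a summit 42 bp from the start (3L 19707973) was below the IDR set, with a signal of 112 in the pooled list, 67.8 in replicate 2 (rank 7508) and 28.7 in replicate 3 (rank 19249). The remaining pooled summit, at 3L 19703193, was the weakest of the 3 and lay in an intron. The promoters of both deacetylase genes thus had pooled summits that did not reach the IDR set, while summits of higher signal lay in their introns or between them.

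Most summits at the 8 genes lay away from promoters, as did most of all IDR summits. Within 500 bp of a start site of any annotated gene were 4 of the 24 (16.7%, 6.68 to 35.9), against 34.1% of all IDR summits. The interval includes that share. These 4 were at trh, bnl, vvl and rib. Intergenic sequence held 12 of the 24 (Wilson interval 31.4% to 68.6%), against 20.7% of all, and 7 of these 12 were at vvl, 4 at verm and 1 at rib. Leaving out vvl, a choice made after seeing the data, 5 of 16 were intergenic (31.2%, 14.2 to 55.6), an interval that includes the share of all. Introns held 8 (33.3%, 18.0 to 53.3), against 42.4%. Exons outside promoters held 0. More than 10 kb from the nearest protein-coding start were 7 of the 24 (29.2%), all of them at vvl, against 16.2% of all IDR summits. Summits at 1 gene share their surroundings, so these shares are not those of independent sites.

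Base composition varied widely among the 24 windows, from 24.8% G or C at bnl to 65.3% at the strongest verm summit. The median was 45.0%, against 40.6% over all IDR windows. The promoter windows of bnl, vvl and rib were GC-rich, at 64.4%, 63.4% and 55.4%, and that of trh was not, at 27.7%.

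Around the 8 genes, 42 other genes of tracheal development were counted in 6 lists by the same rule, and 31 of them (73.8%) had at least 1 IDR summit, against 21.1% of all genes. The lists were chosen with earlier results of these data known, and they were not tested. All 6 genes in the list of EGFR and Dpp signalling were bound. They were led by the Dpp pathway factor gene shn with 11 summits and the highest signal (855), the ligand gene dpp with 6 (374) and the receptor gene tkv with 5 (362). Among other tracheal transcription factors 6 of 7 were bound, with grh (signal 645), knrl (487) and salm (297) highest, and esg had 0.

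FGF signalling around Btl and Bnl had 7 of 9 genes bound, and the remaining genes had 0 IDR summits, as btl did. The 9 genes have 265 kb of nearest sequence in all, against 6.51 kb at btl. The ligand genes pyr (signal 411) and ths (307) act through the other FGF receptor, Heartless. The feedback inhibitor gene sty had 6 summits with a signal of up to 354, and bs, which encodes the fly serum response factor of terminal branches, had 1 (315). The summit of the adaptor gene stumps with the highest signal (305) ranked 845 in replicate 2 and 19710 in replicate 3, while none of the 23 matched summits of the 8 genes ranked below 7148 in replicate 3. The effector gene pnt had 9 summits. Both oxygen response genes were bound, sima (the fly HIF-1 alpha, which also pairs with Tgo) with 4 summits and Hph with 1.

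The lists of the tube lining and its junctions held 13 IDR summits in 112 kb and 6 in 80.8 kb, and the oxygen response list held 5 in 64.4 kb. Per 10 kb, a scale added after seeing the counts, that is 1.16 for the lining and 0.743 for the junctions. Oxygen response had 0.777, the transcription factors 0.702 (18 summits) and FGF signalling 1.02 (27 summits). EGFR and Dpp signalling, with 28 summits and 1.63, was highest on both scales. Below it the lists did not keep the order of their counts. In the list of luminal chitin and matrix 7 of 9 were bound, with a median of 1 summit, and the signals were highest at pio (335), uif (317) and knk (257). The most summits in that list, 6, were at dp, which encodes a giant matrix protein. The knk summit had no counterpart within 100 bp in replicate 2. In the list of septate junctions 3 of 9 were bound, with a median of 0, namely Lac (signal 581), Atpalpha (223) and vari (178). By this count verm and serp, with 5 summits and 1, held as many as or more than the median matrix gene.

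**Figure D4:**
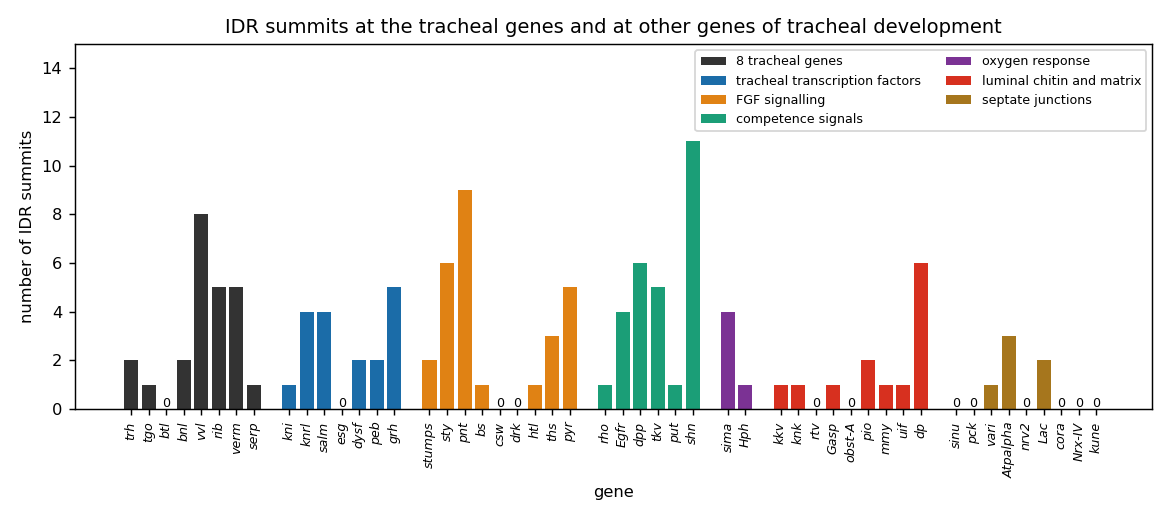
Number of IDR summits at the 8 tracheal genes and at 42 other genes of tracheal development, as bars from 0 coloured by list, with 0 written where a gene had none. Counts reach 11 at shn and 9 at pnt, and 11 of the 42 other genes stand at 0, of which 6 are septate junction genes.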

How the data were processed

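Binding of Oc with GFP at its C terminus was measured by ChIP-seq in 2 libraries of whole embryos. Per the description files deposited with the samples, each replicate list was derived from 1 alignment to dm6 and a shared control alignment, the pooled list from both, and the IDR list from these 3 lists. No source used here gives the peak caller, the aligner, the IDR threshold or the read depth. The deposited signal values, on a scale that was not stated, ranked peaks within a list. For q-values, the deposited column holds the -log10. The deposited summit offsets are other positions, in bases from the interval start. Embryo age was taken from the source name, since the age field of the labels is no embryonic age.

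The members, the lists, the motifs and the alternatives were chosen with earlier results of these data known, and the rule for named genes took all 8 members with up to 3 pooled summits below the IDR set, and the 3 genes of highest signal in each other list. Genes named beyond it (esg, pnt, ths, stumps, dp, neur, Acsx4 and CG8100), and the count of TAATCC directly followed by TAAGCC, were chosen after their values were seen. Summits of the pooled and replicate lists outside the IDR set lie nearer to btl than its nearest IDR summit, and they are not reported here. Summits were assigned with Ensembl 115 (BDGP 6.54), leaving out 204 genes without a start site of their own. Of the 42 other genes, dp matched by its present name dpy, a RefSeq synonym. Summits within 100 bp counted as matched. Motifs were sought within 50 bp of the summit on both strands. The tools were Python 3.11.15 with pandas 2.3.3, numpy 2.4.6, matplotlib 3.10.9 and scipy 1.17.1, and the assignment, matching and motif steps were tested on simulated data. Intervals are 95% Wilson intervals.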

Additional observations from a re-analysis of the deposited data

How the results depend on the processing

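Of 24 alternative values, 21 stayed within the limits set (1.5 times for a count, the Wilson interval for a share). With the 2922 IDR peaks of highest signal, 14 summits remained, at 7 genes. The median signal was 377 when each gene gave its strongest peak, against 222. TAATCC windows numbered 1 without replicate 2 and 2 without replicate 3, against 1 in the IDR list. Taking from a single replicate as many peaks as the IDR list holds gave 23 to 24 summits, at 7 genes, and promoter shares of 20.8% to 21.7%. With start sites of all annotated genes 22 IDR summits at 6 genes and 67 of the 100 pooled summits stayed, and vvl lost 24 pooled summits to noncoding genes. The share found in both replicates was 87.5% within 50 bp. No paired analysis was possible because the libraries form 1 group. At 24 windows, shares of sites near their share over all IDR windows cannot be told from it.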
